A study of Mus musculus with 6 samples.

Results

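Glycogen synthesis and breakdown in peripheral blood (PB) neutrophils was followed through 7 genes, taken from the deposited table by their names: *Ugp2*, *Gys1* and *Gbe1* of synthesis, *Pygl* of breakdown, and *Phka2*, *Phkb* and *Phkg2*, which encode subunits of phosphorylase kinase. They are 7 of the 29097 genes listed and all 7 were among the 10440 genes tested, those whose FPKM averaged 1 or more across the 6 libraries. FPKM counts fragments relative to gene length and library total, and it allows levels of different genes to be compared.

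The study examined how experimental periodontitis alters neutrophils. The mice were wild-type C57BL/6 males, 8 weeks of age. The LIP group (ligature-induced periodontitis, labelled Lig) carried silk ligatures on the maxillary and mandibular second molars of both sides for 14 d. The Ctrl group had no ligatures for 14 d. CD45+CD11b+Ly6G+ cells were sorted from blood, giving 3 Ctrl and 3 LIP libraries that each pooled neutrophils of 5 mice, so that the spread between libraries is a spread between pools. Libraries were made by Smart-seq2, which copies full-length mRNA and amplifies it by PCR without molecular identifiers, so reads are not independent molecules. Total counts were 53059029, 54358483 and 52301060 for Ctrl libraries 1 to 3 and 56504173, 57262379 and 52186555 for LIP libraries 1 to 3. Pairs of libraries of a group differed by a chi-square per gene of 52.2 to 126. This value sets their differences against counting error only, with reads taken as independent, so it includes all spread beyond that error. Ctrl library 2 gave the largest values, 126 with Ctrl library 1 and 87.7 with Ctrl library 3.

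Glycogen is a branched store of glucose. Glucose 6-phosphate is turned into glucose 1-phosphate and then into UDP-glucose, glycogenin starts a chain, glycogen synthase lengthens it and the branching enzyme adds branches, while glycogen phosphorylase releases glucose 1-phosphate again. Phosphorylase kinase switches phosphorylase on, and protein phosphatase 1, held on glycogen by targeting subunits, reverses this and activates the synthase. Neutrophils hold glycogen and can draw on it as fuel where glucose is scarce.

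The sorted cells carried the transcripts that their label implies, together with transcripts of other blood cells. All 18 mature neutrophil markers listed were tested and all 18 were higher in LIP by edgeR, with a median log2 fold change of 1.88. Their summed level was 15723, 17229 and 17211 CPM (counts scaled to library total) in Ctrl and 61554, 64883 and 60031 in LIP, with TMM-normalized library sizes. *S100a9*, the most abundant of them per length, was at 6313, 7777 and 7214 FPKM in Ctrl and 23036, 24360 and 23079 in LIP. The neutrophil markers were therefore present in each library and were higher in the LIP libraries without overlap.

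Erythroid, B cell and T cell markers moved the other way. Of 12 erythroid markers, 10 were tested and 10 were lower in LIP. Their summed level was 131548, 140036 and 137242 CPM in Ctrl and 18586, 17831 and 17855 CPM in LIP. The most abundant erythroid gene was *Hba-a1*, at 66227, 64186 and 55539 FPKM in Ctrl, above *S100a9* in the same libraries, and 7409, 7122 and 7015 FPKM in LIP. All 12 B cell markers were lower in LIP, with a summed level of 18401, 20464 and 19093 CPM in Ctrl and 3852, 3834 and 3864 CPM in LIP, led by *Cd74* with a log2 fold change of -2.27. All 12 T cell markers were also lower, at 646, 740 and 642 CPM in Ctrl and 170, 167 and 135 CPM in LIP, led by *Trbc2* with a log2 fold change of -2.50. Red cell, B cell and T cell transcripts thus made up a larger share of the Ctrl libraries. In each Ctrl library the erythroid sum and the B cell sum were above the sum of the mature neutrophil markers. In each LIP library both were below it. The paper's methods list red cell lysis for blood cell suspensions, and the sort took CD45+CD11b+Ly6G+ cells.

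Platelet and monocyte markers were higher in LIP under TMM. The folds of their mean sums were 2.41 and 2.03, below the 3.72 of the mature neutrophil markers. For platelets, 10 of 10 markers were higher, with sums of 1122, 1325 and 1316 CPM in Ctrl and 2888, 2796 and 3383 CPM in LIP, and *Ppbp* was the most abundant (log2 fold change 1.23). For monocytes, 9 of 10 were higher, with sums of 760, 719 and 817 CPM in Ctrl and 1552, 1628 and 1492 CPM in LIP, and *Ly6c2* was the most abundant (0.79 on the log2 scale). NK cell markers, with 3 of 8 higher, summed to 368, 433 and 391 CPM in Ctrl and 467, 494 and 471 CPM in LIP, led by *Gzma* (log2 fold change 0.20, not past the threshold). Of 7 eosinophil and basophil markers in the table, 5 were tested and 1 was higher, *Siglecf*, also the most abundant, with a log2 fold change of 1.44. These sums were 26.6, 16.3 and 22.7 CPM in Ctrl and 42.7, 41.1 and 52.5 CPM in LIP. No marker of these lists that is in the table was at 0 in all 6 libraries. Beside the counts of markers called in each list, 26.5% of all genes tested were higher in LIP and 27.2% lower by edgeR. *Hba-a1*, *Trbc2* and *Ly6c2* have near-identical copies among which counting could divide reads. The part of these other cells in the glycogen results was not tested, and in such bulk libraries fewer cells of a type and less RNA per cell cannot be told apart.

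Of the 7 glycogen genes, 3 were higher in LIP than in Ctrl by edgeR's quasi-likelihood test at an adjusted p under 0.05, *Pygl*, *Ugp2* and *Gbe1*, and 0 were lower. At an unadjusted p under 0.05, 0 were lower in edgeR, and DESeq2 and limma also called 0 lower. Over all genes tested, 26.5% were higher and 27.2% lower by the same rule. In the same 3 genes the LIP libraries lay above the Ctrl libraries without overlap, which held for 30.3% of all genes tested, and in 0 of the 7 did they lie below, against 33.1% of all genes. The median log2 fold change of the 7 was 0.59, beside -0.095 over all genes tested. With 7 genes chosen with earlier results known, these counts describe the genes and no more.

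These directions are relative to the scaling of the libraries. With libraries scaled on the summed mature neutrophil markers in place of TMM, 0 of the 7 genes were higher and 6 were lower by edgeR, beside 39 higher and 9393 lower of all 10440 genes tested, and the median over all genes moved from -0.095 to -1.99. The counts were also 0 and 6 at an unadjusted p under 0.05, and no other tool was run on that scale. On that scale *Pygl* had a log2 fold change of 0.10 (adjusted p = 0.406 from edgeR), so that its difference between groups was close to that of the neutrophil markers themselves. Relative to the median of all genes under TMM, *Pygl* lay 2.09 higher on the log2 scale, *Ugp2* 1.22 higher and *Gbe1* 0.69 higher. A change of library factors moves a gene and this median alike, so these distances do not test the scaling. With library totals or with limma on FPKM the median over all genes was between -0.42 and -0.31.

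**Figure D1:**
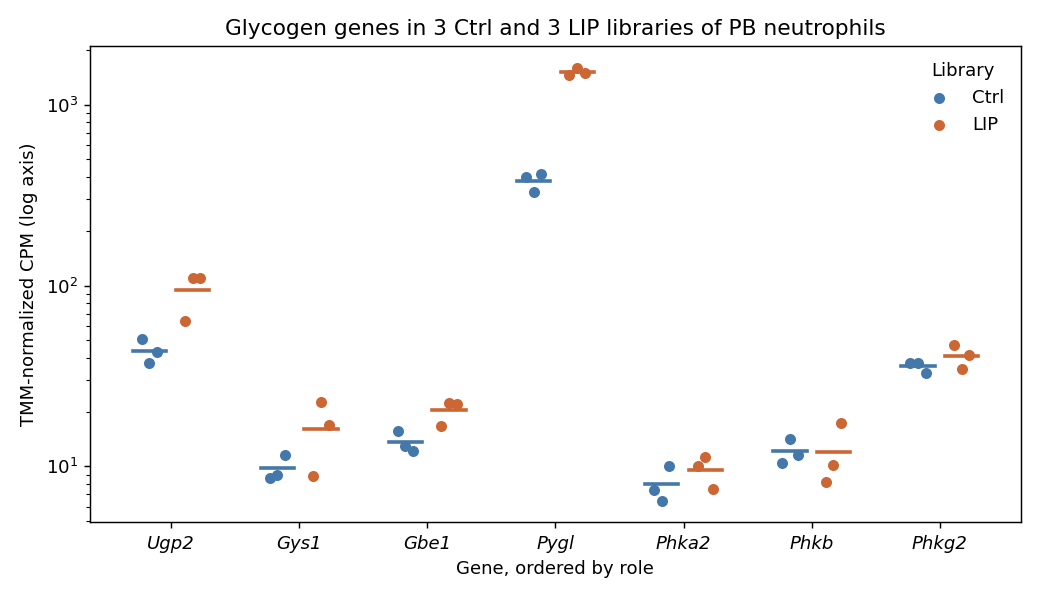
TMM-normalized CPM (log axis) of the 7 glycogen genes in each of 3 Ctrl and 3 LIP libraries of PB neutrophils; each point is a library of 5 pooled mice and each bar the mean of a group. *Pygl* has the highest values, 328 to 414 in Ctrl and 1457 to 1606 in LIP, and the groups are apart for *Pygl*, *Ugp2* and *Gbe1*; scaled on neutrophil markers, *Ugp2* and *Gbe1* are lower in LIP.

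*Ugp2* (ENSMUSG00000001891, GRCm38 chromosome 11 from 21321138 to 21371201, minus strand) encodes UDP-glucose pyrophosphorylase, which makes the UDP-glucose that the synthase uses. It was measured at 50.4, 37.5 and 43.1 CPM in Ctrl and at 63.8, 110 and 111 CPM in LIP. The groups did not overlap, although LIP library 1 was nearer to the Ctrl libraries than to the other LIP libraries. The means were 43.7 ± 6.47 and 94.9 ± 26.9 CPM (SD, n = 3 each), and the log2 fold change was 1.12 (standard error, SE, 0.21, edgeR adjusted p = 0.00129). With each library left out in turn, *Ugp2* stayed past the threshold, at log2 fold changes of 1.00 to 1.34.

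*Gys1* (ENSMUSG00000003865, chromosome 7 from 45434844 to 45456619, plus strand) encodes the glycogen synthase found in most tissues other than liver. Its levels were 8.65, 9.004 and 11.6 CPM in Ctrl and 8.86, 22.6 and 16.8 CPM in LIP. LIP library 1 lay inside the Ctrl range and the other 2 LIP libraries lay above it. The log2 fold change of 0.72 (SE 0.34) missed the threshold, with an adjusted p of 0.0927 from edgeR. Without LIP library 1 it was 1.02 with an adjusted p of 0.00903 from edgeR, and without LIP library 2 it was 0.40 with an adjusted p of 0.364 from edgeR. DESeq2 on all libraries gave 0.76 with an adjusted p of 0.0455, while library totals gave 0.40 (adjusted p = 0.334 from edgeR) and limma on log2(FPKM + 1) gave 0.25 (adjusted p = 0.405). *Gys1* overlaps *Ruvbl2* on the opposite strand (7.59 FPKM), and the use of strand in counting is not given in the sources used here, so reads from the shared stretch could belong to either gene.

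*Gbe1* (ENSMUSG00000022707, chromosome 16 from 70313949 to 70569716, plus strand) encodes the branching enzyme. It was at 15.7, 12.9 and 12.2 CPM in Ctrl and at 16.8, 22.5 and 22.3 CPM in LIP. All LIP libraries lay above all Ctrl libraries, with LIP library 1 just above the highest of them. The log2 fold change was 0.59 (SE 0.23), with an adjusted p of 0.0473 from edgeR that was close to the threshold. The call was lost without Ctrl library 2 or 3 and without LIP library 2 or 3, where edgeR's adjusted p was 0.0916, 0.144, 0.122 and 0.123, while the log2 fold change stayed between 0.52 and 0.72 over the 6 fits. With library totals *Gbe1* had a log2 fold change of 0.26 (adjusted p = 0.344 from edgeR).

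*Pygl* (ENSMUSG00000021069, chromosome 12 from 70190811 to 70231488, minus strand) encodes the liver-type glycogen phosphorylase. It was at 398, 328 and 414 CPM in Ctrl and at 1457, 1606 and 1495 CPM in LIP. The lowest LIP library lay far above the highest Ctrl library, and the spread within LIP was 0.14 on the log2 scale from lowest to highest, beside 0.33 within Ctrl. The means were 380 ± 45.6 and 1519 ± 77.2 CPM (SD, n = 3 each), a fold of 3.997, with a log2 fold change of 1.999 (SE 0.10, edgeR adjusted p = 2.72e-07). Leaving out each library gave log2 fold changes of 1.92 to 2.07, all past the threshold. An overlapping gene on the opposite strand, *F730035M05Rik*, was at 1.37 FPKM, small beside the 119 FPKM of *Pygl*.

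Phosphorylase kinase, which activates phosphorylase, is built of a regulatory alpha subunit (*Phka2*, the liver form), a regulatory beta subunit (*Phkb*), a catalytic gamma subunit (*Phkg2*) and calmodulin. *Phka2* (ENSMUSG00000031295, chromosome X from 160502166 to 160591141, plus strand) was at 7.39, 6.47 and 10.02 CPM in Ctrl and at 10.05, 11.3 and 7.46 CPM in LIP. *Phkb* (ENSMUSG00000036879, chromosome 8 from 85840959 to 86030391, plus strand) was at 10.5, 14.2 and 11.5 CPM in Ctrl and at 8.24, 10.2 and 17.4 CPM in LIP. *Phkg2* (ENSMUSG00000030815, chromosome 7 from 127573340 to 127583305, plus strand) was at 37.1, 37.4 and 33.0 CPM in Ctrl and at 46.8, 34.8 and 41.5 CPM in LIP. The groups overlapped for all 3 subunits, and no difference passed the test under TMM.

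For *Phka2* the log2 fold change was 0.27 (SE 0.30, edgeR adjusted p = 0.469). It was -0.018 for *Phkb* (SE 0.32, edgeR adjusted p = 0.966) and 0.19 for *Phkg2* (SE 0.16, edgeR adjusted p = 0.339). A small change in either direction could not be told from none at this spread, above all for *Phka2* and *Phkb*, whose standard errors were the wider ones. The lowest count of *Phka2* in a library was 348 reads, and as PCR copies are counted as reads, the number of molecules behind it is unknown. The signs of *Phka2* and *Phkg2* turned with library totals (-0.059 and -0.13) and with the neutrophil scaling (-1.63 and -1.70). On the latter *Phkb* was at -1.90, and all 3 subunits passed as lower by edgeR. *Phkg2* overlaps *Ccdc189* on the opposite strand (3.76 FPKM), which makes its values uncertain in the overlap.

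Per length, *Pygl* was the most abundant of the 7 genes in each library. Over the 6 libraries the mean levels were 119 FPKM for *Pygl*, 20.0 for *Ugp2*, 8.77 for *Phkg2*, 2.87 for *Gbe1*, 2.42 for *Gys1*, 1.49 for *Phkb* and 1.31 for *Phka2*. The first 3 stood apart from each other in both groups. *Gbe1* and *Gys1* overlapped, at 2.30 to 3.04 and 1.87 to 2.45 FPKM in Ctrl and at 2.56 to 3.46 and 1.51 to 3.90 FPKM in LIP. *Phkb* and *Phka2* overlapped as well, at 1.46 to 1.92 and 1.07 to 1.67 FPKM in Ctrl and at 0.905 to 1.93 and 1.01 to 1.54 FPKM in LIP. The order of these neighbours was thus not resolved, nor was that of *Gys1* and *Phkb*, whose ranges also touched in both groups. Of the 3 kinase subunits, the catalytic one stood apart: the FPKM of *Phkg2* was 4.9997 to 8.79 times that of *Phka2* in Ctrl and 4.66 to 8.49 times in LIP.

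Phosphorylase transcripts came mainly from *Pygl*. Of the summed FPKM of *Pygl*, the brain-type *Pygb* and the muscle-type *Pygm*, *Pygl* made up 91.8%, 91.5% and 88.6% in Ctrl and 97.6%, 98.5% and 96.5% in LIP. The groups did not overlap. The ratio of *Pygl* to *Gys1* in FPKM, breakdown enzyme over synthase, was 32.1, 25.4 and 24.9 in Ctrl and 115, 49.3 and 61.8 in LIP. Both quantities were chosen after values had been seen and are given as descriptions, without a test. Such a ratio within a library does not depend on how libraries are scaled, and it was higher in each LIP library than in each Ctrl library. It can still differ with the mix of cells in a library, whose part in it was not tested. Reads from the stretch that *Gys1* shares with *Ruvbl2* could enter it as well. The highest ratio was that of LIP library 1, in which *Gys1* was lowest.

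The profiles of the 7 genes over the 6 libraries were compared by the root mean square difference of their log2 CPM after centring each on its own mean. *Ugp2* and *Gbe1* were the most alike of the 21 pairs, with a difference of 0.30, and *Pygl* and *Phkb* the least alike, with 1.10. *Pygl* was at 0.53 from *Ugp2*, its nearest among the 7. Among 3385 genes that averaged 10 FPKM or more, the 3 nearest to *Pygl* were *Cd244a*, *Crispld2* and *B430306N03Rik*, with differences of 0.060, 0.062 and 0.063 over the 6 libraries. These 3 genes had log2 fold changes of 2.02, 2.11 and 1.96. As the centring spans both groups, the difference between groups enters this measure. Genes with like log2 fold changes therefore lie close by it, which holds for the 21 pairs too. *Ugp2*, *Gys1*, *Gbe1*, *Phkb* and *Pygl* were lowest among the LIP libraries in LIP library 1, at -0.52, -0.71, -0.26, -0.42 and -0.059 from the LIP mean on the log2 scale. In the same library *Phka2* was at 0.076 and *Phkg2* at 0.20. LIP library 1 also had the fewest genes with a count, 17650, beside 19038 to 22698 in the other libraries, and the part of this in the levels was not tested.

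The wider list of glycogen metabolism held 48 genes found in the table, of which 36 were tested, the 7 genes above included. Of the 36, 21 were higher in LIP and 2 lower by edgeR, beside 26.5% higher and 27.2% lower over all genes tested. The 21 include *Hk2*, which reached the expression limit only through its LIP libraries. The median log2 fold change of the 36 was 0.51. With the 7 genes set aside, 18 of 29 were higher and 2 lower. Scaled on neutrophil markers, 0 of the 36 were higher and 28 lower by edgeR, also at an unadjusted p under 0.05, where 39 of all 10440 genes were higher and 9393 lower. With library totals 14 of the 36 were higher and 3 lower. Over all genes tested, 2766 were higher and 2835 lower under TMM, 1898 and 4179 with library totals, 2010 and 4249 with limma on log2(FPKM + 1), and 1974 and 4144 with limma on log2(FPKM + 0.1).

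**Figure D2:**
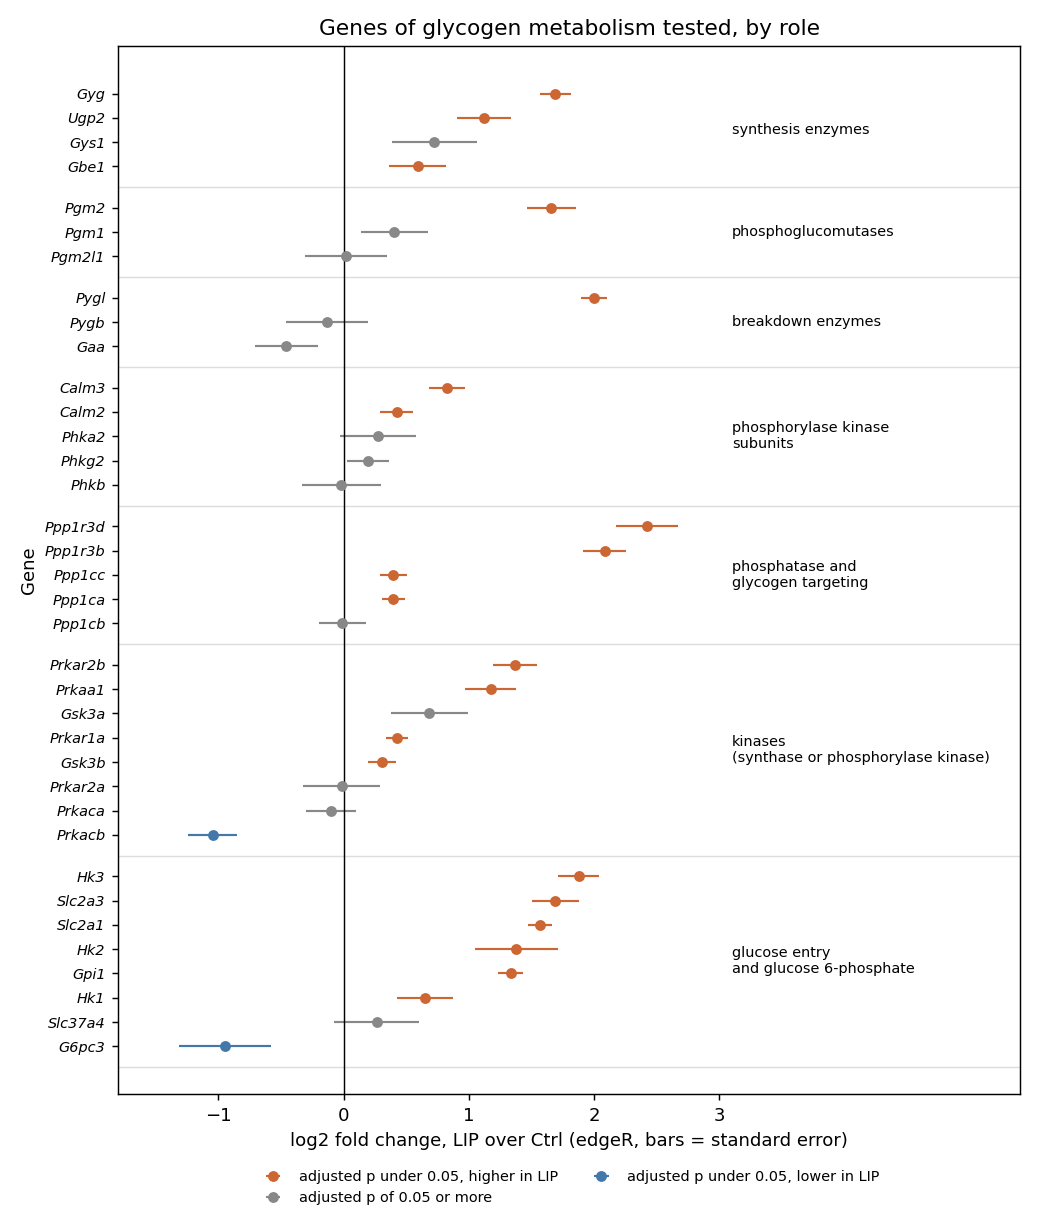
Log2 fold change, LIP over Ctrl, of the 36 tested genes of glycogen metabolism by role, from edgeR with TMM; points are estimates from 3 libraries per group, bars are standard errors and colour gives the call at an adjusted p under 0.05. *Ppp1r3d* (2.42), *Ppp1r3b* (2.09) and *Pygl* (1.999) lie farthest to the right and *Prkacb* (-1.05) and *G6pc3* (-0.95) farthest to the left; scaled on neutrophil markers, 0 of these genes pass as higher.

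Among the synthesis enzymes, 3 of 4 tested were higher in LIP under TMM, beside 26.5% of all genes tested. *Gyg*, which encodes glycogenin, the protein primer of a glycogen chain, had the highest mean FPKM over the 6 libraries and the largest log2 fold change of these 4 genes. It was at 38.8, 40.2 and 34.3 CPM in Ctrl and at 117, 123 and 126 CPM in LIP, with no overlap, and its log2 fold change was 1.69 (SE 0.12, edgeR adjusted p = 1.90e-06). On the neutrophil scaling it was -0.21. The liver synthase *Gys2* was below the expression limit of 1 FPKM.

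Phosphoglucomutases interconvert glucose 1-phosphate and glucose 6-phosphate. *Pgm2* rose from 20.8, 17.1 and 18.4 CPM in Ctrl to 50.6, 75.0 and 52.0 CPM in LIP, without overlap (log2 fold change 1.66, standard error 0.19, adjusted p = 4.99e-05 from edgeR), and was at -0.25 on the neutrophil scaling. *Pgm1* (0.40) and *Pgm2l1* (0.019) did not pass the test. The gene names here are those of the deposited table, in which *Pgm1* lies on chromosome 4 and *Pgm2* on chromosome 5.

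Of the breakdown enzymes, *Pygl* was the 1 of 3 tested that was higher, beside 26.5% of all genes tested. *Pygb* had a log2 fold change of -0.13 and the lysosomal acid glucosidase gene *Gaa* one of -0.46, and neither passed under TMM. *Gaa* passed as lower without LIP library 1 (-0.67, adjusted p = 0.0473 from edgeR), with library totals (-0.79, adjusted p = 0.0204 from edgeR) and with limma on log2(FPKM + 1) and log2(FPKM + 0.1) (adjusted p = 0.0208 and 0.0234 from limma). On the neutrophil scaling both passed as lower by edgeR, *Pygb* at -2.01 (adjusted p = 0.000367) and *Gaa* at -2.36 (adjusted p = 1.36e-05). *Pygm* was below the expression limit, with a mean of 0.716 FPKM.

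Calmodulin is the calcium-binding subunit of phosphorylase kinase and serves many other enzymes. *Calm2*, the most abundant gene of this role per length, was at 459, 563 and 445 CPM in Ctrl and at 713, 702 and 549 CPM in LIP. LIP library 3 lay below Ctrl library 2, so the groups overlapped, while the log2 fold change of 0.42 passed (adjusted p = 0.0180 from edgeR). It was not past the threshold without Ctrl library 1, Ctrl library 3, LIP library 1 or LIP library 2 (edgeR's adjusted p 0.0570, 0.0777, 0.0620 and 0.0680), nor with library totals (log2 fold change 0.094). *Calm3* rose more, from 53.4, 70.6 and 56.8 CPM to 104, 98.4 and 118 CPM without overlap (log2 fold change 0.82, adjusted p = 0.000743 from edgeR). Both were lower in LIP on the neutrophil scaling (-1.47 for *Calm2* and -1.06 for *Calm3*). The muscle-type kinase subunits *Phka1* and *Phkg1* were below the expression limit.

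Protein phosphatase 1 and the subunits that hold it on glycogen held the largest change of the list under TMM. On the neutrophil scaling *Prkacb* (-2.94) and *G6pc3* (-2.83) changed most. *Ppp1r3d*, a glycogen-targeting subunit, was at 45.8, 22.1 and 46.8 CPM in Ctrl and at 211, 197 and 206 CPM in LIP. The groups were far apart, with Ctrl library 2 the lowest, and the log2 fold change was 2.42 (SE 0.25, edgeR adjusted p = 1.80e-05). *Ppp1r3b*, the targeting subunit best known from liver, followed with 2.09 (SE 0.17, edgeR adjusted p = 3.92e-06). Together with *Pygl* these are the 3 genes of the list whose log2 fold change stayed above 0 on the neutrophil scaling, at 0.52 for *Ppp1r3d* and 0.19 for *Ppp1r3b*, although none of the 3 passed there.

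The catalytic subunit gene *Ppp1ca* was the most abundant of this role, at 560, 656 and 571 CPM in Ctrl and at 754, 820 and 777 CPM in LIP. Its log2 fold change of 0.40 (adjusted p = 0.00466 from edgeR) was small beside those of the targeting subunits. *Ppp1cc* also passed at 0.40 and *Ppp1cb*, at -0.010, did not. With library totals *Ppp1ca* and *Ppp1cc* were at 0.068 each and no longer passed. *Ppp1ca* overlaps *Rad9a* on the opposite strand (16.2 FPKM) and *Ppp1cb* overlaps *Gm43313* on the same strand (1.30 FPKM), so reads in the overlaps are uncertain. Below the expression limit were the targeting subunits *Ppp1r3c*, *Ppp1r3e*, *Ppp1r3f* and *Ppp1r3g*, the laforin and malin genes *Epm2a* and *Nhlrc1*, and the glycogen-binding protein gene *Stbd1*.

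Kinases that act on the synthase or on phosphorylase kinase moved in both directions under TMM, with 4 of 8 tested higher and 1 lower, beside 26.5% higher and 27.2% lower over all genes tested. *Prkar2b*, a regulatory subunit of protein kinase A, was at 63.9, 38.7 and 59.0 CPM in Ctrl and at 135, 139 and 143 CPM in LIP (log2 fold change 1.37, adjusted p = 9.71e-05 from edgeR). *Prkar1a*, another regulatory subunit and the most abundant gene of this role, was at 355, 338 and 364 CPM in Ctrl and at 485, 481 and 456 CPM in LIP (0.43, adjusted p = 0.00220 from edgeR). Neither gene showed an overlap between groups. With library totals *Prkar1a* was at 0.10 and did not pass (adjusted p = 0.337 from edgeR), nor did it with limma on FPKM. *Prkacb*, a catalytic subunit of the same kinase, was lower, at 43.2, 31.5 and 46.3 CPM in Ctrl and at 20.6, 18.8 and 19.2 CPM in LIP (-1.05, adjusted p = 0.00108 from edgeR), and it was lower in each alternative in which it was tested. So within protein kinase A, under TMM, 2 regulatory subunit genes were higher and 1 catalytic subunit gene lower. The regulatory *Prkar2a* and the catalytic *Prkaca* did not pass. On the neutrophil scaling *Prkar2b*, *Prkar1a* and *Prkacb* were at -0.54, -1.47 and -2.94, and each passed as lower by edgeR.

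*Prkaa1*, a catalytic subunit of AMP-activated kinase, had a log2 fold change of 1.17 and *Gsk3b*, a glycogen synthase kinase, one of 0.31 (adjusted p = 0.0408 from edgeR). *Gsk3b* did not pass without Ctrl library 1, Ctrl library 3, LIP library 2 or LIP library 3 (edgeR's adjusted p 0.0835, 0.103, 0.0970 and 0.157), and with library totals it was at -0.020. On the neutrophil scaling *Prkaa1* was at -0.72. *Gsk3a* (0.68), *Prkaca* (-0.10) and *Prkar2a* (-0.017) did not pass, and *Prkaa2* was below the expression limit.

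Of the genes that bring glucose to the pathway, 6 of 8 tested were higher under TMM and 1 was lower, beside 26.5% higher and 27.2% lower over all genes tested. *Hk3*, a hexokinase of myeloid cells that makes glucose 6-phosphate, was at 109, 71.5 and 83.0 CPM in Ctrl and at 317, 290 and 362 CPM in LIP (log2 fold change 1.88, adjusted p = 5.60e-06 from edgeR). The glucose transporter gene *Slc2a1* was the most abundant of this role per length, at 135, 131 and 127 CPM in Ctrl and at 385, 393 and 387 CPM in LIP (1.57, adjusted p = 5.84e-07 from edgeR). Both showed no overlap, and the libraries of a group were close to each other for *Slc2a1*. The transporter *Slc2a3* (1.69), the hexokinases *Hk2* (1.38) and *Hk1* (0.65) and the isomerase *Gpi1* (1.33) also passed. *Hk2* averaged 0.671 FPKM in Ctrl and 1.41 FPKM in LIP. It thus reached the expression limit of 1 FPKM only through the LIP libraries, and its place among the 8 tested depends on that filter. With no filter it passed as well, with a log2 fold change of 1.41 (adjusted p = 0.0170 from edgeR). *Hk1* did not pass without Ctrl library 2, LIP library 2 or LIP library 3 (edgeR's adjusted p 0.0537, 0.0988 and 0.0959), nor with library totals (log2 fold change 0.32). On the neutrophil scaling these 6 genes lay between -1.25 for *Hk1* and -0.025 for *Hk3*.

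*G6pc3*, a glucose 6-phosphatase that works in the opposite direction to the hexokinases, was at 7.81, 9.39 and 11.7 CPM in Ctrl and at 7.49, 3.55 and 3.94 CPM in LIP. LIP library 1 lay just below the lowest Ctrl library. The log2 fold change was -0.95 (SE 0.37), and its adjusted p of 0.0499 from edgeR was at the threshold. The call was lost without any 1 of the Ctrl libraries (adjusted p 0.0599, 0.104 and 0.168 from edgeR) and without LIP library 2 or 3 (0.142 and 0.131). It was kept without LIP library 1, and over these fits the log2 fold change was -1.36 to -0.75. *G6pc3* passed as lower with library totals (-1.28, adjusted p = 0.0131 from edgeR) and on the neutrophil scaling (-2.83, adjusted p = 5.35e-05 from edgeR). DESeq2 (adjusted p = 0.0367) and both limma fits (adjusted p = 0.00512 and 0.00696 from limma) also called it lower. It did not pass with median-of-ratios factors, no filter, filterByExpr or the replicate block. *Slc37a4*, the transporter of glucose 6-phosphate into the endoplasmic reticulum, was at 0.26 and did not pass.

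All 7 genes matched an entry of the RefSeq promoter table (GRCm38.p6). The 250 bases before the start are shown for the 3 that were higher in LIP under TMM, read 5′ to 3′ on the gene's own strand. Capitals mark matches on either strand to ACGTG, the core of the hypoxia response element, GAGGAA, an Ets-type core, or TTGCNNAA, a C/EBP-type motif. For *Ugp2*, with 2 entries, the one nearer to the start in the deposited table is shown. The start is that of RefSeq, which for *Pygl* lies inside the gene as the deposited table bounds it, so that its window does too. The regions are chr12:70227684-70227933 (minus strand) for *Pygl*, chr11:21371268-21371517 (minus strand) for *Ugp2* and chr16:70313699-70313948 (plus strand) for *Gbe1*.
Pygl: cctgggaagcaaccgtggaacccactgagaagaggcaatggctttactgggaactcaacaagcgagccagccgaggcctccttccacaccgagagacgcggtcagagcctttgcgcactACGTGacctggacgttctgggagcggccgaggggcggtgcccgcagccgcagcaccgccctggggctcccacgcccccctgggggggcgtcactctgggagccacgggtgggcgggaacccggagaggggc
Ugp2: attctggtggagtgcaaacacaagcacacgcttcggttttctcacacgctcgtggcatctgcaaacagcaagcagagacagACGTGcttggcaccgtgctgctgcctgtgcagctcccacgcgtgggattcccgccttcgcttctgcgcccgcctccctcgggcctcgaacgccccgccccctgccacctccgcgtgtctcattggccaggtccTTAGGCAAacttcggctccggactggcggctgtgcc
Gbe1: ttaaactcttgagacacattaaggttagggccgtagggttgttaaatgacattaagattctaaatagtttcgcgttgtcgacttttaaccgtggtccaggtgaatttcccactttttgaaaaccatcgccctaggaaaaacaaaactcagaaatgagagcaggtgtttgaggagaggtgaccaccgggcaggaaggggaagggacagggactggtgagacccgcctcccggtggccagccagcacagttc
*Pygl* held 1 match to ACGTG, *Ugp2* held 1 to ACGTG and 1 to TTGCNNAA in the window shown and 0 matches to the 3 motifs in that of its other entry (chr11:21370630-21370879), and *Gbe1* held 0 of the 3 motifs in this window. Of 32851 promoters of the same length in the table, 16.6% held ACGTG, 23.3% GAGGAA and 9.56% TTGCNNAA. A match is a run of letters and was not tested as a site.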

How the data were processed

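The authors deposited raw counts per gene, not normalized, with FPKM values that the authors derived from gene length and library total, in 1 table with GRCm38 coordinates. The submitters' processing notes name cutadapt 1.9, FastQC and GRCm38; the aligner, the counting tool and the use of strand are not given in the sources used here. Libraries were grouped by the labelled treatment. The counts were tested with edgeR 4.0.16 (quasi-likelihood, TMM, R 4.3.3) over the 10440 genes whose FPKM averaged 1 or more, with Benjamini-Hochberg adjustment at 0.05. TMM assumes that most genes do not change. CPM values use TMM-normalized library sizes, with factors of 1.14, 1.10 and 1.12 in Ctrl and 0.887, 0.888 and 0.902 in LIP. The biological coefficient of variation was 0.265. The test was tested on simulated data.

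The 7 genes and all lists were chosen with earlier results of these data known. For a name on several rows, the most abundant row by FPKM was taken. Each tested gene of the wider list is named. Some results for single genes are left out here, and the counts and medians of the list are without them. Values per library are given for the 7 genes and, in each of 7 roles, for the called gene with the largest change and the gene with the highest mean FPKM. For *Pygl* the 3 most similar genes are named, and from each marker list the most abundant gene. Values per library of *Prkacb* and *G6pc3*, the ratios of FPKM and the promoter motifs were chosen after values were seen. Alternatives were other scalings, filters, DESeq2 1.42.0, limma 3.58.1, a replicate block and leaving out each library.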

Additional observations from a re-analysis of the deposited data

How the results depend on the processing

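Among 17 alternatives, *Pygl* passed as higher in all but the neutrophil scaling, and *Ugp2* likewise, with log2 fold changes of -0.78 to 1.34. Of the values of the 36 tested genes under these alternatives, 459 kept direction and side of the threshold, 57 lost the call and 12 gained one with the sign kept, and 69 changed sign, with or without a change of call, 25 of these on the neutrophil scaling. In the latter, 0 glycogen genes of the 7 were higher and 6 lower, 0 of the wider list were higher and 28 lower, and the median of the 7 was -1.31. Log2 fold changes there were -0.78 for *Ugp2*, -1.18 for *Gys1*, -1.31 for *Gbe1*, -1.63 for *Phka2*, -1.90 for *Phkb*, -1.70 for *Phkg2*, -0.21 for *Gyg*, -1.50 for *Pgm1*, -0.25 for *Pgm2*, -1.88 for *Pgm2l1*, -1.47 for *Calm2*, -1.06 for *Calm3*, -1.50 for *Ppp1ca* and *Ppp1cc*, -1.20 for *Gsk3a*, -1.59 for *Gsk3b*, -1.47 for *Prkar1a*, -0.54 for *Prkar2b*, -0.72 for *Prkaa1*, -0.33 for *Slc2a1*, -0.21 for *Slc2a3*, -1.25 for *Hk1*, -0.50 for *Hk2*, -0.025 for *Hk3*, -0.56 for *Gpi1* and -1.62 for *Slc37a4*. The shift follows from the scaling itself, which sets the rise of the neutrophil markers to 0.

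The median of the 7 was 0.26 with library totals, 0.21 with limma on log2(FPKM + 1) and 0.27 on log2(FPKM + 0.1). In that order, *Phka2* was at -0.059, -0.021 and -0.034, *Phkg2* at -0.13, -0.11 and -0.12, *Pgm2l1* at -0.31, -0.18 and -0.33, *Gsk3b* at -0.020, -0.0029 and -0.0035, and *Slc37a4* at -0.064, -0.071 and -0.12. With limma on log2(FPKM + 0.1), 13 genes of the wider list were higher. The cause was not tested. *Phkb*, *Ppp1cb* and *Prkar2a* were near 0, at 0.019, 0.030 and 0.027 with median-of-ratios factors and with DESeq2, 0.014, 0.024 and 0.014 with no filter, and 0.023, 0.031 and 0.024 with filterByExpr. With a mean FPKM of at least 5, where 3 of the 7 and 21 of the wider list were tested, the median of the 3 was 0.94 and 0 genes of the wider list were lower. With median-of-ratios factors, no filter or filterByExpr 1 gene was lower, since *G6pc3* was lost. With no filter 2 of the 7 and 17 genes of the wider list were higher. *Gbe1*, at a log2 fold change of 0.63 (adjusted p = 0.0823 from edgeR), *Calm2*, *Gsk3b* and *Hk1* did not pass there. With filterByExpr 20 genes of the wider list were higher. Over all genes, 2891 were higher and 2690 lower of 10440 with median-of-ratios factors, 2430 and 2184 of 29097 with no filter, 2762 and 2688 of 16402 with filterByExpr, and 1761 and 1905 of 5328 with a mean FPKM of at least 5. DESeq2 called 4 of the 7 higher, beside 2989 higher and 2817 lower of all 10440 genes.

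Leaving out each library gave 2 to 4 of the 7 higher, 17 to 21 of the wider list higher and 1 to 3 lower, and a median of 0.40 to 0.72, beside 2419 to 2615 higher and 2255 to 2770 lower of all 10440 genes. Values that changed sign ranged from -0.39 to 0.19 for *Phkb*, -0.15 to 0.16 for *Ppp1cb*, -0.22 to 0.22 for *Prkar2a*, -0.21 to 0.31 for *Pgm2l1*, -0.47 to 0.24 for *Pygb* and -0.012 to 0.54 for *Slc37a4*.

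Same-numbered libraries correlated at 0.021, 0.056 and 0.036 in their deviations from group means. The other pairs ran from -0.050 to 0.022, the highest being Ctrl library 1 with LIP library 3. Correlations this small do not decide whether the numbers pair the libraries. With the replicate block, 2 of the 7 were higher, *Gbe1* having an adjusted p of 0.0744 from edgeR, 20 of the wider list were higher and 1 lower, and the median was 0.59, beside 2724 higher and 2822 lower of all 10440 genes. *Pgm2l1* was at -0.053 and *Prkar2a* at 0.014 with the replicate block. The lowest count of any of the 7 genes in a library was 348 reads, and PCR copies are counted as reads, so depth limits the molecules behind the low genes in a way the counts do not show.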
